A study of Rattus norvegicus with 12 samples.

Results

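Serum was compared with colostrum whey over the 178 of 388 rat miRNAs that the scanner software detected on at least 1 of 6 arrays, the 3 arrays of serum and the 3 of whey taken 2 days postpartum (day 2 whey). The samples came from 3 F344/N dams, which were 14 weeks old and on day 14 of pregnancy when they were bought. For milking, each dam was kept from her litter, given oxytocin and lightly anesthetized with sevoflurane, and fat, cells and casein were spun out of the milk to leave whey. Serum was taken from the same dams at weaning, 21 days postpartum, under deep sevoflurane anesthesia from the inferior vena cava, and whey and serum went through the same filters, the finest of 0.22 µm. Mature milk whey came from the same dams on days 9 and 16. It was used to ask what it lacks, and its arrays also entered the normalization and the fit. Equal amounts of total RNA, 70 ng, were put on every array. Serum and day 2 whey thus differ in fluid, in day postpartum and in slide, since the day 2 and day 9 samples shared 1 slide and the day 16 and serum samples the other, and the effect of these cannot be told apart from these 6 arrays.

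miRNAs are short RNAs that pair with messenger RNAs, mainly through a seed near their 5′ end, and lower the output of their targets. They also circulate in body fluids, where vesicles, proteins and lipoproteins shield them from nucleases. Serum miRNAs are known to come largely from blood cells, platelets, blood vessels and the liver, and those of milk largely from the mammary epithelium. Colostrum is the first milk, made while the junctions between mammary epithelial cells are still closing, and it is rich in proteins of immune defence. A comparison of colostrum with serum asks how far the whey of the first days carries the miRNAs of blood, and which of these the later milk does not show.

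Mature sequences were taken from RefSeq (rat assembly GRCr8) and matched through the letters of the array probes, which gave a sequence for 159 of the 178 miRNAs. The first set holds the 9 miRNAs detected in day 2 whey and in serum but never in mature milk whey, because the question of the comparison turns on them. Each is written 5′ to 3′ in lower case with the seed, bases 2 to 8, in capitals. The entry of miR-290 was matched by its name, since it ends within the stretch that the probes cover.
miR-125b-3p: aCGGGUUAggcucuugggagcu
miR-133a: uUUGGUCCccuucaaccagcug
miR-134: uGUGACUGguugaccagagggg
miR-181b: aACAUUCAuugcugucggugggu
miR-290: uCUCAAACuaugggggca
miR-341: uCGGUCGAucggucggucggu
miR-409-3p: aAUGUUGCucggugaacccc
miR-874: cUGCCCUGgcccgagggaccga
miR-877: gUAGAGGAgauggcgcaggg
No seed occurred more than once among these 9. Their median GC content was 59.1%, against 45.5% for the 97 sequences of the 109 miRNAs that day 2 whey, serum and mature milk whey all showed and 47.6% for the 340 sequences of the whole array. Along chromosome 6, miR-341 (chr6:134347871-134347891), miR-134 (chr6:134570320-134570341) and miR-409-3p (chr6:134579231-134579250) all lie on the plus strand in the imprinted Dlk1-Dio3 region. miR-877 (chr20:2816284-2816303, plus strand) lies within the span of Abcf1 and is known as a mirtron, a miRNA cut from a spliced intron without the nuclease Drosha.

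The second set shows miRNAs that set the fluids apart, the first 4 with far more signal in serum and the last 4 with far more in day 2 whey. miR-192 and miR-215 share a seed and both stood high in serum.
miR-451: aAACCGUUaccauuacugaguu
miR-122: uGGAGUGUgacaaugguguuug
miR-192: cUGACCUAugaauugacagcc
miR-215: aUGACCUAugauuugacagaca
miR-141: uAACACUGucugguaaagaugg
miR-200c: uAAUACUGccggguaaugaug
miR-31: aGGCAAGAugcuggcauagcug
miR-96: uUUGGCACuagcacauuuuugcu

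All signals below are log2 of the total signal per miRNA after quantile normalization over the 12 arrays, with values under 1 set to 1, and so a log2 signal of 0 is the floor of the scale. Differences are serum minus day 2 whey, 3 rats each, with standard errors (SE) from limma. The fit estimated 1 spread per miRNA from all 4 groups, mature milk whey included. An SE or p therefore does not measure the spread of the 6 compared arrays alone. A group held at the floor adds no spread to that estimate, so the SE and p of such a miRNA rest in part on the floor. P-values were adjusted by the Benjamini-Hochberg method over the 188 miRNAs detected on any of the 12 arrays. A fold is written "at least" where no array of the weaker fluid detected the miRNA or where the mean there was below the limit of background, and each such dim value then counts as the limit of its array. That limit is the lowest signal of an array among miRNAs with 0.5 or more of their spots well above background. On the log2 scale it ranged from 4.69 to 6.12 in day 2 whey and, for serum, from 2.99 to 3.60. No fold is given for a miRNA that does not clear these limits.

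The arrays of serum carried more signal. Before normalization the positive signals of day 2 whey summed to 22491 to 26246 per array and those of serum to 90002 to 161389, at the same RNA input. Single day 2 arrays detected 109 to 125 miRNAs and single serum arrays 145 to 165. Quantile normalization removes this gap in total signal, and how it bears on the direction of each miRNA is given with the results. Because RNA input was equal, the gap does not show that day 2 whey holds less RNA than serum. The paper reported a much higher RNA concentration in colostrum whey than in serum. It found the ratio of miRNA to small RNA to be highest in serum. For any given miRNA, fewer source cells and less release per cell cannot be told apart in a cell-free fluid.

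Of the 178 miRNAs, 128 were detected in day 2 whey and 168 in serum. There were 118 in common, 50 in serum alone and 10 in day 2 whey alone. Of the 128 in day 2 whey, 109 were also found in serum and in mature milk whey, 9 in serum and not in mature milk whey, 7 in mature milk whey and not in serum, and 3 in neither. The 109 carried 96.2% to 97.0% of the signal of the day 2 arrays and 73.7% to 75% of that of the serum arrays. The 9 carried 0.687% to 0.816% of the day 2 signal and 0.209% to 0.295% of the serum signal. Serum drew a further 21.6% to 22.6% of its signal from 23 miRNAs that mature milk whey also showed and day 2 whey did not. Most of this was miR-451, which alone carried 13.3% to 17.2% of the serum signal. In mature milk whey the 23 carried 0.215% to 0.739% of the signal. A detection call and a signal come from the same spots, so these counts and shares describe the arrays and support nothing beyond them.

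Levels of the shared miRNAs differed widely between the fluids. Across the 118 miRNAs found in both, R2 between the group means of log2 signal was 0.311, and across all 388 it was 0.579. These values are across miRNAs, which share arrays and normalization. In limma, 75 of the 178 were higher in serum, 75 were lower and 28 did not pass the threshold of an adjusted p of 0.05. Of the 75 higher, 39 were detected on no day 2 array and so entered the 178 through serum alone. Of the 75 lower, 8 entered through day 2 whey alone. The balance of the 2 counts thus depends on the detection filter. Over all 188 miRNAs tested, 75 were higher and 81 lower, so that 83.0% were called (39.9% higher and 43.1% lower). Between the fluids, the 3 rats of each group did not overlap for 147 of the 178 and for 80.3% of all tested. The difference exceeded 2-fold for 129 miRNAs and 4-fold for 88, and it ran from -9.44 to 12.45 on the log2 scale. Among the 95 detected on all 6 arrays, 31 were higher in serum and 52 lower.

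**Figure D1:**
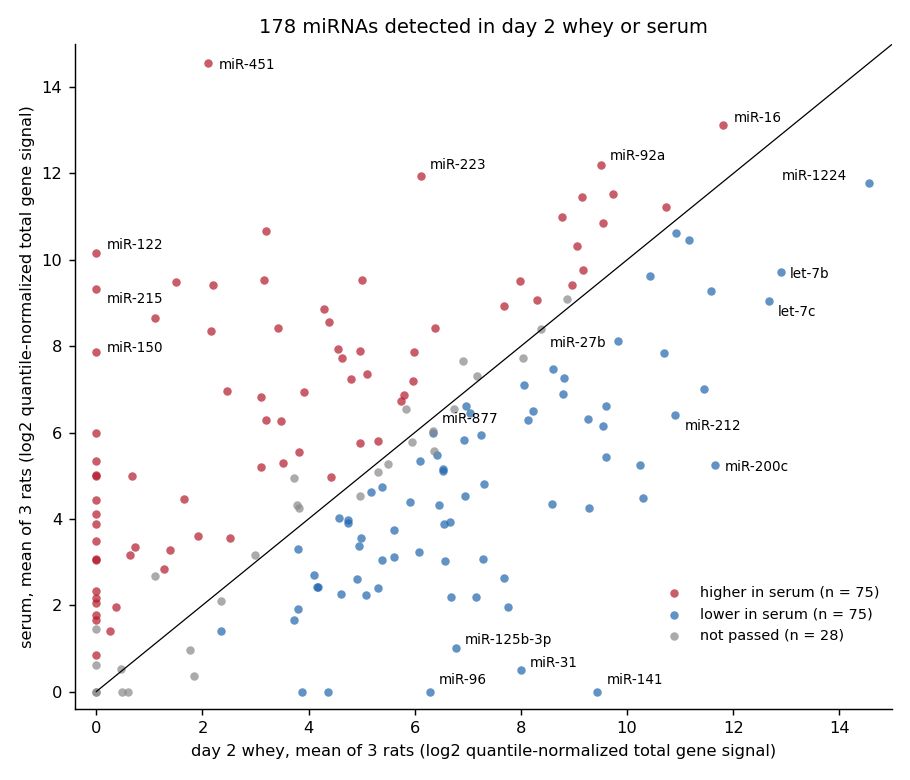
Mean log2 signal of 3 rats in day 2 whey (horizontal) and serum (vertical) for the 178 miRNAs, coloured by the limma call, with the line of equal signal. miR-451 stood at 2.10 in day 2 whey and 14.55 in serum, and miR-141 at 9.44 and 0.00.

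Without normalization between arrays, 117 miRNAs were called higher in serum and 25 lower, beside 75 and 81 with it, because the median of all tested miRNAs then moved by 2.00 on the log2 scale in favour of serum. None of the 75 called higher turned, but a shift in favour of serum works against such a turn, so this is no check of them. Of the 75 called lower, 32 turned to a positive difference and 23 were called lower in serum on either scale. These 23 were miR-141, miR-31, miR-96, miR-200c, miR-322, miR-125b-3p, miR-294, miR-200a, miR-125a-3p, miR-101a, miR-183, miR-200b, miR-205, miR-375, miR-291a-5p, miR-181a, miR-494, miR-429, miR-101b, miR-103, let-7c, let-7f and miR-296*. Scaling to the 75th percentile of the commonly detected miRNAs moved the median by 0.31 and called 86 higher and 69 lower. The median moved by 0.13 with normexp background correction and by 0.11 with the deposited value table. With slide as a term and the mature milk days as 1 group, 65 were higher and 76 lower.

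**Figure D2:**
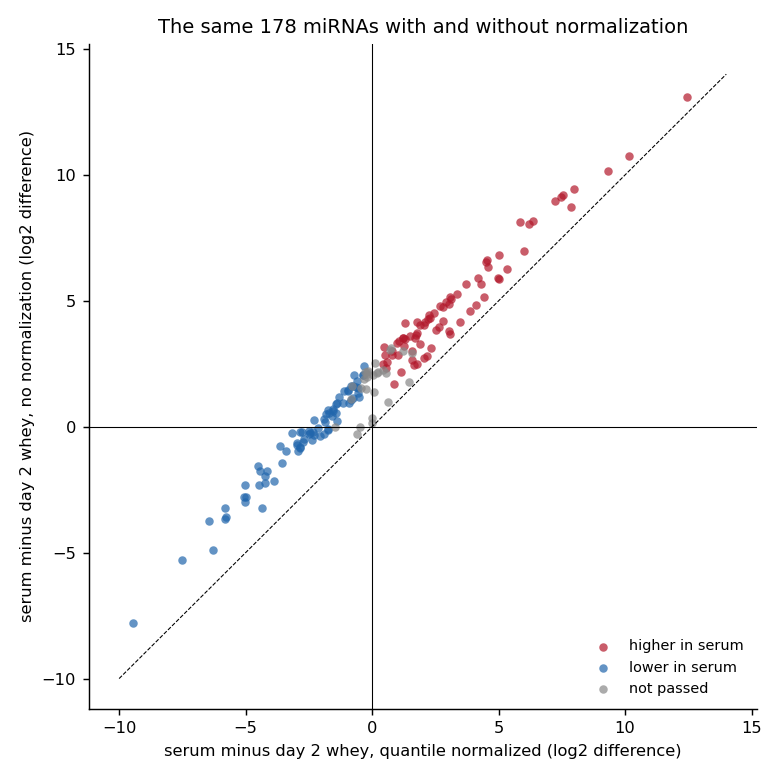
Log2 difference, serum minus day 2 whey, of the 178 miRNAs with quantile normalization (horizontal) and with none (vertical), coloured by the call with quantile normalization. Points lie above the dashed line of equal values by a median of 2.00 over all tested miRNAs, and 32 of the 75 called lower cross above 0.

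The 6 largest rises in serum were of miRNAs known from blood cells, liver and gut. miR-451, the most abundant miRNA of red cells, had log2 signals of 2.28, 1.90 and 2.12 in the day 2 whey of rats 1, 2 and 3 and of 14.55 in each serum. It was the brightest miRNA of every serum array, which quantile normalization sets to 1 common value, and was detected on no day 2 array. Before normalization its signals were 1.79, 2.31 and 1.95 against 27728, 16928 and 11967. The difference was 12.45 (SE 0.49, adjusted p = 8.2e-09 in limma), and serum was at least 580-fold higher. Its partner in the genome, miR-144, was detected on none of the 6 arrays.

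miR-122, which makes up most of the miRNA of hepatocytes, was at the floor in all 3 day 2 samples and at 9.94, 9.94 and 10.62 in serum. Serum was at least 27.8-fold higher (adjusted p = 7.3e-09, limma). miR-215 and miR-192, both of intestine, liver and kidney, rose to 9.05, 9.12 and 9.82 and to 9.33, 9.19 and 9.94. In day 2 whey miR-215 stayed at the floor, and miR-192 had values of 0.00, 1.30 and 3.21 with no detection call. Groups did not overlap for any of these, and the folds were at least 15.6 and 17.3. miR-194, the fourth miRNA of the liver and gut list, was detected on none of the 6 arrays.

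All 5 leukocyte miRNAs on the list were higher in serum, with a median difference of 5.83 against -0.19 over all miRNAs tested. miR-223, the leading miRNA of neutrophils, was the only 1 of the 5 detected in day 2 whey. Its log2 signals there were 6.12, 6.23 and 5.97, against 11.94 in each serum (difference 5.83, SE 0.69, adjusted p = 2.5e-05, 57-fold). miR-150 of mature lymphocytes was at the floor in day 2 whey and at 7.28, 7.77 and 8.53 in serum, at least 5.61-fold higher. miR-342-3p was at least 9.80-fold higher. The 5p and 3p arms of miR-142, found across blood cell lineages, differed by 4.10 and 2.53, both too dim for a fold, and lost their calls at 0.20 with normexp correction and at 0.83 with a floor of 5. The summed signal of the leukocyte list before normalization was 25.2 to 30.8 per day 2 array and 7319 to 9817 per serum array.

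Endothelial and platelet miRNAs showed the same side. miR-126, carried by the Egfl7 gene of blood vessel lining, was at the floor in day 2 whey and at 5.42, 6.31 and 6.23 in serum (at least 1.53-fold, adjusted p = 3.7e-09 in limma). The p rests in part on those floor values. miR-139-3p rose from 4.41, 1.88 and 3.30 to 10.35, 10.79 and 10.87, at least 39.4-fold. miR-221 did not pass (difference 0.71, SE 0.36, adjusted p = 0.093), though at 0.65 to 3.06 it passed under each other scaling but the deposited value table, and miR-126*, miR-139-5p and miR-222 were detected on none of the 6 arrays. miR-10a-5p and miR-10b, which sit in the Hox clusters, were at least 16.5-fold and 7.85-fold higher in serum.

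**Figure D3:**
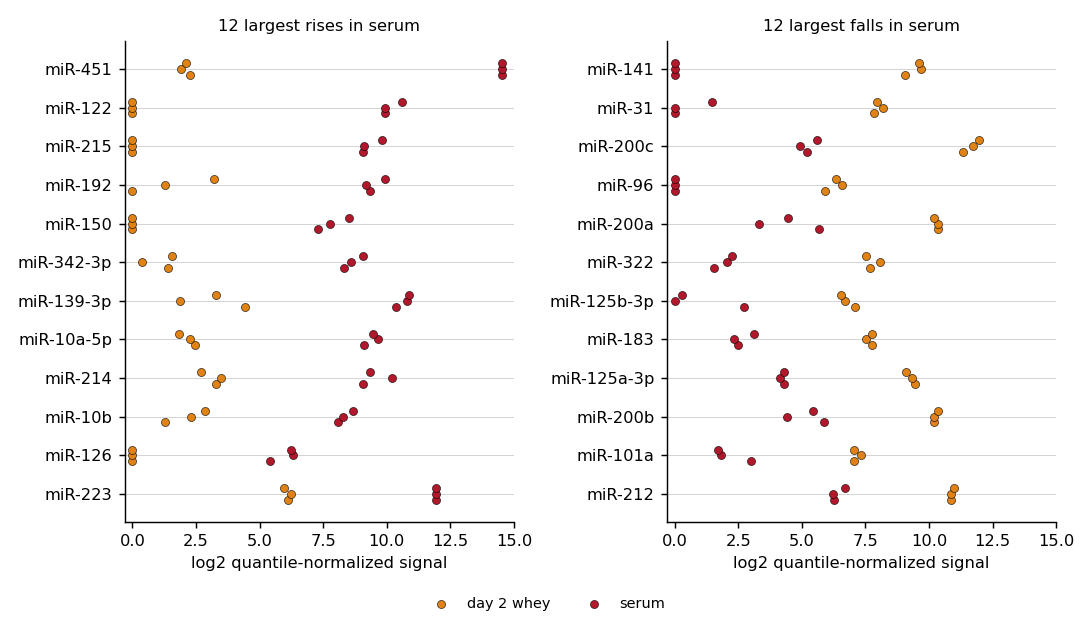
Log2 signal of each rat in day 2 whey and serum for the 12 largest rises and the 12 largest falls in serum among miRNAs detected on all 3 arrays of the brighter group with 1 direction in all rats. Groups did not overlap for any of the 24, and miR-122, miR-215, miR-150 and miR-126 were at the floor in all 3 day 2 samples.

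Of the 4 detected muscle miRNAs, 3 were higher in serum and 1 was lower. miR-1, of heart and skeletal muscle, was at the floor in day 2 whey and at 6.31, 6.12 and 3.60 in serum. miR-1 did not pass with normexp background correction (0.85) or with the deposited value table (6.71). miR-206, of skeletal muscle, had 5.36, 5.46 and 4.16. Rat 3 was the lowest in both, and its summed signal of the list before normalization was 155, against 987 and 990 in rats 1 and 2. miR-133b showed the same order, with 8.53, 8.67 and 6.40 in serum and 6.15, 5.67 and 6.12 in day 2 whey (difference 1.88, SE 0.79, adjusted p = 0.048). Its call was lost when any 1 of the other 5 arrays was left out (1.48 to 1.97), and without serum of rat 3 the difference was 2.62 and passed. It was also lost with slide as a term (1.72), with a floor of 5, with no filter and in the Tukey-Kramer test.

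miR-133a, the fourth, was lower in serum by 1.88 while miR-133b was higher. Their mature sequences are of equal length and differ at 1 position, and how far the probes tell them apart was not tested. miR-133a is also 1 of the 9 miRNAs that mature milk whey lacked, so it is described with them.

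Of the 4 mesenchymal miRNAs detected, 3 were higher in serum and 1 was lower. miR-214 and miR-199a-3p, transcribed together, were at least 17.9-fold and 8.30-fold higher in serum. miR-199a-5p, the third, differed by 1.59 with overlapping groups. Its call was lost without day 2 whey of rat 2 or 3 or serum of rat 2 or 3 (1.12 to 1.41), with only the 6 arrays in the normalization (1.65) or in the fit, with no filter, with a floor of 5 (0.22), with normexp correction (0.04), with slide as a term (1.97) and in the Tukey-Kramer test. miR-143, of smooth muscle and fibroblasts, had 11.72, 11.33 and 11.72 in day 2 whey and 9.19, 9.52 and 9.12 in serum (difference -2.31, SE 0.57, adjusted p = 0.0039), and 0.25 without normalization. miR-145, its partner in the genome, was detected on none of the 6 arrays.

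Epithelial miRNAs made up the 5 largest falls and 7 of the 12 largest. All 5 members of the miR-200 family, which hold cells in the epithelial state by lowering Zeb1 and Zeb2, were lower in serum under each of the scalings tried, with a median difference of -5.82 with quantile normalization and -3.22 without. miR-141 had 9.05, 9.67 and 9.60 in day 2 whey and 0.00 in each serum, where no array detected it. Its signals before normalization were 185, 329 and 296 against 0.144, 1.70 and 0.548. Day 2 whey was at least 67.6-fold higher (adjusted p = 7.0e-11, limma). miR-200c, its neighbour in the genome, was detected on all 6 arrays, with 11.33, 11.72 and 11.94 against 5.21, 4.91 and 5.60 (difference -6.43, SE 0.21, adjusted p = 3.7e-09).

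miR-200a, miR-200b and miR-429, transcribed together from another locus, differed by -5.82, -5.01 and -4.16. Within serum these 3 varied more than within day 2 whey. For miR-200a the SD was 1.18 in serum and 0.09 in day 2 whey, and rat 2 was the lowest in serum for all 3 miRNAs. miR-200b, for example, had 5.87, 4.41 and 5.42 in the serum of rats 1, 2 and 3.

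Of the 6 other epithelial miRNAs detected on these arrays, 5 were lower in serum and 1 was higher. miR-31, of squamous and mammary epithelium, had 7.85, 8.20 and 7.97 in day 2 whey and 0.00, 0.00 and 1.48 in serum, at least 25.0-fold. miR-96 and miR-183, neighbours in the genome and known from sensory epithelia, were at least 7.56-fold and 20.1-fold higher in day 2 whey. miR-205, a marker of basal epithelial cells, was at least 9.94-fold higher in day 2 whey, and miR-375 differed by -4.24 (SE 0.33). miR-203 of the epidermis was the exception, with 3.11, 3.35 and 4.24 in serum and 1.48, 2.99 and 3.11 in day 2 whey (difference 1.04, SE 0.43, adjusted p = 0.045), and the groups overlapped. Its call was lost without day 2 whey of rat 1 (0.51) or serum of rat 2 (1.15) or rat 3 (0.70). It was also lost with slide as a term (1.02), normexp correction (0.07) or scaling to the 75th percentile of all miRNAs (0.83). Nor did miR-203 pass with only the 6 arrays in the normalization (1.00) or in the fit, with no filter or in the Tukey-Kramer test.

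**Figure D4:**
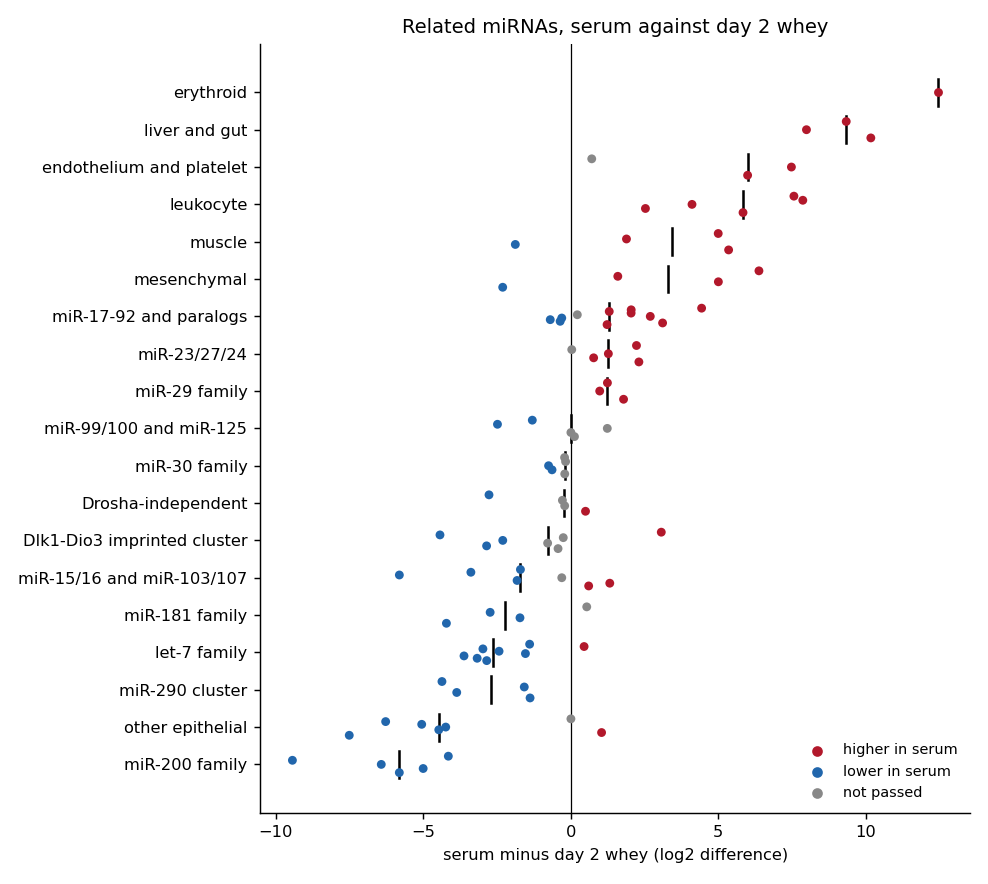
Log2 difference, serum minus day 2 whey, of each miRNA in lists of related miRNAs, ordered by the median of the list (bar) and coloured by the limma call. The 5 leukocyte points lie to the right of 0 and the 5 of the miR-200 family to the left, and the let-7 list has 7 to the left and 1 to the right.

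The 5 miRNAs with the most signal in each fluid are given as a description only, since signals of different probes are not comparable levels. They were miR-1224, let-7b, let-7c, miR-16 and miR-200c in day 2 whey and miR-451, miR-16, miR-92a, miR-223 and miR-1224 in serum, with miR-16 and miR-1224 in both. miR-16, a miRNA of red cells and most tissues, had log2 signals of 11.94, 11.94 and 11.52 in day 2 whey and 13.12 in each serum (difference 1.32, SE 0.13, adjusted p = 6.5e-06).

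miR-1224, a mirtron within Vwa5b2, stood at 14.55 in each day 2 sample and at 11.17, 12.44 and 11.72 in serum (difference -2.78, SE 0.25, adjusted p = 3.2e-06). Before normalization its signals overlapped, at 6954, 5398 and 6740 in day 2 whey and 5297, 7645 and 3898 in serum. Without normalization its difference was -0.23 and did not pass. Its fall on the normalized scale is therefore a fall relative to the other miRNAs of each array.

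miR-1224 was 1 of 4 listed miRNAs that are made without Drosha. Of these, miR-320 was higher in serum by 0.50, miR-1224 was lower, and miR-484 and miR-877 did not pass, while without normalization 3 of the 4 were higher and none lower. The call of miR-320 was lost without day 2 whey of rat 2 (0.39) or serum of rat 1 (0.48) or rat 3 (0.38). It was also lost in the Tukey-Kramer test.

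The let-7 family, which slows growth and marks differentiated cells, had 7 members lower in serum and 1 higher, with a median of -2.64, but 2 lower and 2 higher and a median of -0.23 without normalization. let-7c fell from 12.44, 13.12 and 12.44 to 8.99, 9.05 and 9.08 (difference -3.62, SE 0.16, adjusted p = 1.8e-08). let-7i was the member on the other side, at 8.87, 8.99 and 9.05 in day 2 whey and 9.67, 9.33 and 9.25 in serum (difference 0.45, SE 0.13, adjusted p = 0.011), and with slide as a term it differed by 0.19 and did not pass.

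miR-17-92 and its paralogs, a growth-linked group, leaned the other way, with 7 of 11 higher in serum, 3 lower and 1 not passed, and all 11 higher without normalization. miR-92a, abundant in red cells, had 9.94, 9.25 and 9.33 in day 2 whey and 12.44, 11.72 and 12.44 in serum (6.46-fold). This holds at equal RNA mass. In the authors' qPCR of equal volumes only miR-192, miR-150, miR-223, miR-451 and miR-122 were higher in serum than in whey. miR-92a was thus not among them. Nor were the other miRNAs assayed there and called higher in serum here, such as miR-146a, miR-24, miR-29a, miR-29b, miR-29c, let-7i and miR-320. miR-18a was at least 5.14-fold higher in serum. miR-19b of the same transcript had 11.17 in each day 2 sample and 10.62, 10.43 and 10.35 in serum, a difference of -0.70 (SE 0.12, adjusted p = 0.00032) on the quantile scale and 2.05 without normalization.

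The miR-29 family, which lowers collagen messages, was higher in serum in all 3 members, by 0.98 to 1.78, though with slide as a term miR-29b differed by 0.03 and did not pass. Of the miR-23/27/24 list, 4 of 5 were higher. The fifth, miR-27b, had the smallest difference of the 95 miRNAs detected on all 6 arrays, 0.03 (95% interval -0.26 to 0.32), with 8.43, 8.29 and 8.43 in day 2 whey and 8.60, 8.34 and 8.29 in serum. Next to it came miR-99a (0.12, interval -0.15 to 0.39), miR-30d, miR-30a, miR-484, miR-30e, miR-106b and miR-877, all with intervals that reach past 0. A p that misses the threshold does not show these levels to be equal, and without normalization miR-27b differed by 2.04 and passed.

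In the miR-30 family 2 of 5 were lower and none higher, but all 5 were higher without normalization and 2 with scaling to the 75th percentile of detected miRNAs. Of the miR-181 family 3 were lower and none higher, against 1 and 1 without normalization. miR-181a was at least 14.3-fold higher in day 2 whey. Among the 5 tested of miR-99, miR-100 and miR-125, 2 were lower and none higher, but 3 were higher and none lower without normalization.

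Of miR-103, miR-107 and 5 relatives of miR-15 and miR-16, 2 were higher and 4 lower in serum, against 3 higher and 2 lower without normalization. miR-322, the miR-15 relative induced in differentiating cells, was at least 21.2-fold higher in day 2 whey. miR-103 and miR-107, whose mature sequences differ at 1 position, differed by -3.39 and -1.71, and by -0.96 and 0.53 without normalization.

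The 9 miRNAs seen in day 2 whey and serum and not in mature milk whey were unlike one another. Relative to day 2 whey, 7 were lower in serum, none higher and 2 did not pass, with a median of -1.74 beside -0.19 over all 188 and 43.1% called lower. Without normalization 1 was lower and 3 higher. Only 3 of them, miR-125b-3p, miR-290 and miR-877, were detected on all 6 arrays. When the rule asked instead for 0.5 or more of the spots well above background, 4 miRNAs met it. These were miR-290, miR-341 and miR-877 of the 9 and, in addition, miR-370, which the scanner software had called on 2 day 9 arrays. Differences from mature milk whey below are given with no test, since absence there chose these miRNAs.

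miR-877 was the most evenly shared. It had 6.78, 6.07 and 6.15 in day 2 whey and 5.92, 6.15 and 6.07 in serum, and was at the floor in all 6 mature milk samples. The groups overlapped (difference -0.29, SE 0.17, adjusted p = 0.13, 95% interval -0.66 to 0.09). Without day 2 whey of rat 2 the difference was -0.42 and passed. Day 2 whey exceeded mature milk whey by 6.33 and serum by 6.05 on the log2 scale, at least 3.80-fold and 3.11-fold. Signals before normalization were 36.6, 25.8 and 26.0 in day 2 whey and 156, 157 and 90.5 in serum, so that without normalization the difference was 2.17.

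miR-290 belongs to a cluster known from embryonic stem cells. Its signals were 6.69, 6.28 and 6.65 in day 2 whey and 4.79, 5.30 and 5.36 in serum, which did not overlap (difference -1.38, SE 0.21, adjusted p = 0.00017). In mature milk whey it lay between 2.38 and 3.11 with no detection call, and day 2 whey was at least 4.37-fold and serum at least 1.67-fold above it. Without normalization miR-290 differed by 0.95 in favour of serum, and with normexp correction by -0.12 with no call.

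The rest of the miR-290 cluster did not share this pattern. miR-291a-5p and miR-294 were detected on all 3 day 2 arrays and all 6 mature milk arrays but never in serum. miR-292-5p, with the same seed as miR-290, was detected on all 12 arrays and differed by -1.58 (SE 0.47). All 4 detected members of the cluster were lower in serum with quantile normalization, and 2 lower and 1 higher without.

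miR-341, whose letters repeat a short unit as printed above, had 6.19, 5.87 and 6.19 in day 2 whey and 3.39, 3.55 and 2.74 in serum. It was at the floor in all 6 mature milk samples. Day 2 whey was at least 5.80-fold above serum (difference -2.86, SE 0.19, adjusted p = 3.2e-07), with -0.81 and no call without normalization.

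miR-134, a brain-enriched miRNA, was detected on 1 day 2 array and on all 3 of serum, at 5.36, 4.61 and 4.91 against 4.53, 4.67 and 4.37. The groups overlapped (difference -0.44, SE 0.50, adjusted p = 0.43), and serum was 1.54 higher without normalization. The day 2 mean of miR-134, 4.96, lay under the mean background limit of day 2 whey, 5.37. It left the group of 9 without day 2 whey of rat 3. miR-409-3p was detected on 2 day 2 arrays and 1 serum array, at 5.18, 4.37 and 5.21 against 2.43, 2.51 and 2.89 (difference -2.31, SE 0.22, adjusted p = 5.1e-06). Its means, 4.92 in day 2 whey and 2.61 in serum, lay under the mean limits of 5.37 and 3.36, so no fold is given. Its mean in serum lay 0.43 below that of mature milk whey, which had no detection call, and the values of single rats overlapped.

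Of the 40 miRNAs listed from the Dlk1-Dio3 cluster, 7 were detected on these 6 arrays, with 1 higher in serum, 3 lower and 3 not passed. Without normalization 4 were higher and 1 lower. The 1 higher with quantile normalization was miR-539, detected in serum alone. It lost its call with slide as a term (1.69) and turned to -0.051 with normexp correction. miR-370, from the same stretch as miR-341, had 6.84, 5.92 and 6.31 in day 2 whey and 5.46, 6.03 and 5.21 in serum, groups that overlapped (adjusted p = 0.12). miR-494 had 11.52, 11.52 and 11.33 in day 2 whey and 6.40, 8.53 and 6.12 in serum, with rat 2 above the others in serum.

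miR-125b-3p had the largest fall of these 9. It stood at 7.11, 6.69 and 6.52 in day 2 whey, at the floor in mature milk whey, and at 2.74, 0.00 and 0.29 in serum, where the scanner software still called it on all 3 arrays. Day 2 whey was at least 10.6-fold above serum (difference -5.76, SE 0.58, adjusted p = 7.7e-06), and it was the 1 miRNA of the 9 that was called lower without normalization too. Its serum signals before normalization were 13.2, 2.21 and 1.24, under the background limit of each array. The other arm, miR-125b-5p, which blocks several differentiation genes, was detected on all 12 arrays and differed by -1.31 (SE 0.39, adjusted p = 0.011), but by 1.18 without normalization and 0.21 with normexp background correction.

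The last 3 of the 9 were dim too. miR-133a had 4.02, 3.77 and 3.60 in day 2 whey and 2.12, 2.28 and 1.33 in serum (adjusted p = 0.0035), miR-181b 3.77, 4.53 and 4.16 and 2.38, 2.74 and 2.16 (adjusted p = 0.016), and miR-874 4.47, 3.93 and 4.12 and 1.83, 3.46 and 2.00 (adjusted p = 0.0014). Groups did not overlap for any of them, yet their group means lay under the background limits of both fluids, and so no fold is given. None of the 3 passed without normalization (-0.28, -0.07 and -0.12) or with the deposited value table (-1.42, -1.47 and -1.49). miR-181b and miR-409-3p left the group of 9 without serum of rat 2. The call of miR-181b between serum and day 2 whey was also lost without serum of rat 3 (-1.59), without day 2 whey of rat 2 (-1.54) and with slide as a term (-0.71).

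**Figure D5:**
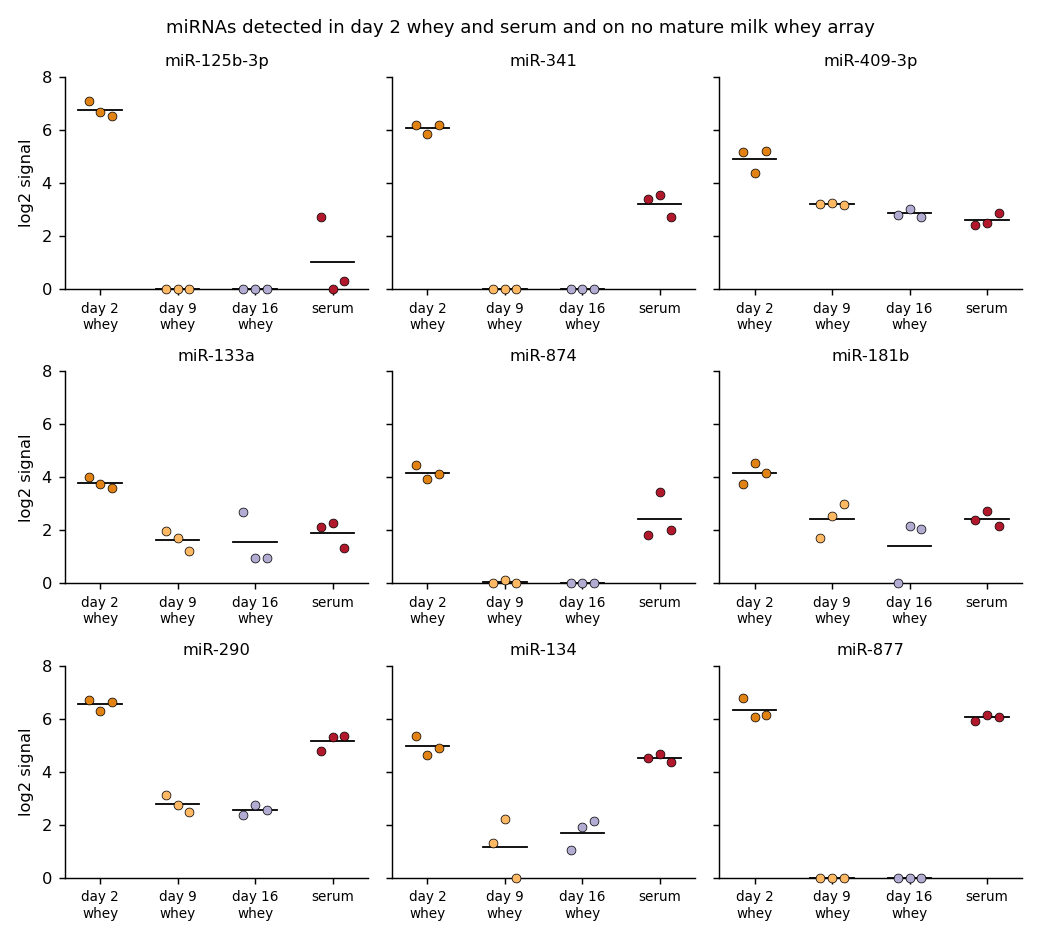
Log2 signal of each rat (points, with the mean as a bar) in day 2, day 9 and day 16 whey and serum for the 9 miRNAs seen in day 2 whey and serum and never in mature milk whey, ordered by the difference between serum and day 2 whey. miR-877 stood at 5.92 to 6.78 in day 2 whey and serum and at 0.00 in mature milk whey, and the mean of miR-409-3p in serum lay below its mature milk means, with overlapping points.

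Only 3 miRNAs were detected in day 2 whey and in no other fluid or day. miR-664, at 4.91, 4.47 and 4.47 in day 2 whey and 1.72, 2.43 and 2.60 in serum, was the 1 of them that passed (difference -2.37, SE 0.25, adjusted p = 1.2e-05), but not without normalization (-0.54) or with normexp correction (-0.37). miR-125b* and miR-193* were each called on 1 array, with group means of 0.59 and 0.48, and did not pass.

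Detection on all 3 arrays of 1 fluid and none of the other marked 35 miRNAs for serum and 6 for day 2 whey. The 6 were miR-101a, miR-141, miR-291a-5p, miR-294, miR-31 and miR-96, and all of them were detected in mature milk whey as well. miR-101a, which lowers the histone methyltransferase Ezh2, had 7.06, 7.33 and 7.06 in day 2 whey and 2.99, 1.83 and 1.72 in serum, at least 13.8-fold. Of the 35, 30 were called higher in serum, miR-7a* was called lower at -0.93, and 4 did not pass. Over all miRNAs tested, 39.9% were called higher. Detection in serum and not in day 2 whey chose the 35 from the same spots, so their count of calls supports nothing further. For miR-7a*, which reached 2.23 to 2.51 in day 2 whey without a detection call and 1.22 to 1.55 in serum with one, the scale turned the difference to 0.96 without normalization. The call is set by each array's own noise and need not follow the normalized level.

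On the quantile scale, miRNAs with the same seed did not all move together. Among the 159 of the 178 miRNAs with a matched sequence, 24 seeds were shared by 2 or more, 66 miRNAs in all. Families with unmatched members, such as miR-200a and miR-200b, are therefore counted in part or not at all. For 13 seeds every member passed in 1 direction, while 6 held members that passed in opposite directions. Without normalization these counts were 11 and 3, and of the 6 seeds only those of let-7 and of miR-16 still held members on opposite sides. Sequences of 2 such pairs follow, chosen after their values were seen, to show how alike the members are.
miR-132: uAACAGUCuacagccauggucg
miR-212: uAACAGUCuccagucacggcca
miR-146a: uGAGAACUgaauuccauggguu
miR-146b: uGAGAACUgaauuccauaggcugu
miR-212 and miR-132 lie on chromosome 10 within 1 stretch (chr10:60521811-60522112, plus strand) and are known to be made from 1 transcript. miR-212 had 10.87, 10.87 and 10.99 in day 2 whey and 6.28, 6.23 and 6.69 in serum (22.8-fold lower, difference -4.51, SE 0.95, adjusted p = 0.0015), and -1.57 without a call without normalization. miR-132 was at the floor in day 2 whey and at 2.16, 1.97 and 2.86 in serum, below the background limits (difference 2.33, SE 0.19, adjusted p = 1.6e-06), and at 0.18 with no call when the floor was 5. In mature milk whey miR-212 stood 5.75 below day 2 whey, a value given with no test, and miR-132 was at the floor.

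miR-146a, induced by inflammatory signals in blood cells, had 4.53, 4.19 and 4.41 in day 2 whey and 8.67, 8.43 and 8.60 in serum, at least 9.16-fold. In the authors' qPCR of equal volumes miR-146a was not among those higher in serum. miR-146b, from another chromosome, had 8.29, 8.34 and 8.08 against 6.78, 6.19 and 6.49 (difference -1.75, SE 0.20, adjusted p = 1.8e-05). Before normalization, signals of miR-146b were 102, 127 and 110 in day 2 whey and 280, 162 and 123 in serum, ranges that overlapped, and without normalization it differed by 0.65 in favour of serum.

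Neighbours were sought only among miRNAs whose sequence was matched at 1 locus, which leaves out let-7a, miR-17-5p, miR-24 and miR-200b, among others. They formed 22 stretches holding 2 or more on 1 strand with gaps of at most 10 kb. In 9 of these every member passed in 1 direction, and 5 had members passing in both. Without normalization these counts were 12 and 2, and none of the 5 had members passing in both. miR-199a-5p, miR-199a-3p and miR-214 were all higher in serum, the first of them with the reservations given above. let-7e, miR-125a-5p and miR-125a-3p, also neighbours, were all lower, and miR-99b* beside them did not pass. Arms of hairpins were grouped by name, which gave 18 groups with more than 1 arm among the 178. Of these, 6 had arms that passed in 1 direction and 5 had arms in opposite directions. The miR-125b group is not a single hairpin, since miR-125b-3p lies on chromosome 8 and miR-125b* on chromosome 11. Without normalization the counts of groups in 1 direction and in opposite directions were 12 and 1. The 1 was the miR-125b group, and none of the 5 was opposed then. For miR-148b the 3p arm fell from 5.74, 6.19 and 5.83 to 4.69, 4.37 and 4.12, while the 5p arm was at the floor in day 2 whey and at 2.60, 2.64 and 3.93 in serum. The 3p arm differed by -1.53 on the quantile scale and by 0.69, with no call, without normalization, and the 5p arm by 0.07 with no call under normexp correction. Here too the 5p signals lay near or under the background limits.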

How the data were processed

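Total RNA of whey and serum from 3 rats was labelled with Cy3 by the authors and hybridized to rat miRNA arrays, 1 sample per array. Agilent Feature Extraction 9.5.3.1 gave the deposited intensity values, a background-subtracted total signal and a detection call per miRNA (8475 spots per array, 7760 of them for 388 miRNAs). A deposited log2 table of quantile-normalized signals by the authors was left out, because none of its 12 columns names a sample. The deposited series value table of intensity per spot served as an alternative. No 2 of the 12 arrays (66 pairs) were identical.

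Total signals were quantile normalized over 12 arrays, floored at 1 and taken to log2. With limma 3.58.1 (R 4.3.3), a mean for each of the 4 groups was fitted to every miRNA detected on any array, 188 in all. Tests were two-sided, with Benjamini-Hochberg adjustment and a threshold of 0.05. A miRNA counted as detected in a group when called on at least 1 of its 3 arrays. The fit was tested on simulated data. Other steps used Python 3.11.15, numpy 2.4.6, pandas 2.3.3, scipy 1.17.1 and matplotlib 3.10.9. The number of arrays, 3 per group, limits the precision.

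The labels name the rat of each sample, so day 2 whey and serum pair by rat. Deviations from the group means correlated across miRNAs by -0.048, -0.071 and 0.0045 within rats 1, 2 and 3, and by -0.028 to 0.076 between rats. The rat served as a block in an alternative.

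The miRNAs, the 19 lists and the rules were chosen with earlier results of these data known. Alternatives covered the scaling, the floor, the background correction, the detection filter, the slide, the arrays in the fit and the Tukey-Kramer test of the study's methods. The naming rule took in the 12 largest rises and 12 largest falls with 1 direction in all rats, the miRNAs of the detection patterns described, up to 4 per list, the 8 smallest differences and the 5 brightest per fluid, 103 in all. Others (let-7e, let-7i, miR-101b, miR-146a, miR-146b, miR-148b, miR-19b, miR-296*, miR-370, miR-375, miR-429, miR-99b* and miRNAs not detected) were named after their values were seen. Seed, hairpin and neighbour groups were formed after the values were seen.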

Additional observations from a re-analysis of the deposited data

How the results depend on the processing

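The fit with the rat as a replicate block gave 75 higher and 81 lower in serum and changed no call among the 103 miRNAs chosen by rule. Leaving out each array in turn gave 70 to 72 higher and 75 to 80 lower, 111 to 118 miRNAs found in both fluids and 7 to 9 of them absent from mature milk whey. With 0.5 or more of the spots well above background as the rule, 73 were found in both and 4 were absent from mature milk whey, and with detection on all 3 arrays 3 were. Of the 103, 49 kept their call and direction under every alternative and 19 turned under at least 1.

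Without normalization, 117 were higher and 25 lower. Of the 103, those that then turned to a positive difference were miR-107 (0.53), miR-125b-5p (1.18), miR-134 (1.54), miR-143 (0.25), miR-195 (0.52), miR-290 (0.95), miR-292-5p (0.42), miR-30a (2.18), miR-30b-5p (1.57), miR-30c (1.60), miR-30d (2.20), miR-30e (1.99), miR-484 (2.08), miR-7a* (0.96) and miR-877 (2.17), as the shift of all miRNAs by 2.00 on this scale brings with it. Scaling to the 75th percentile of detected miRNAs turned miR-30a (0.43) and miR-30d (0.45). With normexp background correction miR-125b-5p (0.21), miR-30a (0.51), miR-30c (0.19) and miR-30d (0.41) turned up, and miR-30c-1* (-0.18), miR-539 (-0.051), miR-674-3p (-0.062) and miR-760-3p (-0.40) turned down, and the cause was not tested. The other settings, among them slide as a term, a floor of 5, an intensity trend and the Tukey-Kramer test of the methods, gave 63 to 76 higher and 68 to 88 lower and turned none of the 103. Signals of day 2 whey lay closer to background than those of serum, which limits what can be said of dim miRNAs there.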
